A study of Equus caballus with 68 samples.

Results

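The comparison described here follows equine bone marrow mononuclear cells (BMNC) cultured in normal synovial fluid (SF) from 48 to 96 hours. It takes the 8 SF libraries of 96 hours and the 7 SF libraries of 48 hours, chosen by their labels, out of 68 libraries in the series. The animals were 8 adult Thoroughbred horses aged 3 to 9 years, named Catnip, Dealings, Dreamer, Flash, Lurie, Moon, Ollie and RimRun. Cells of each horse were grown separately in undiluted, cell-free fluid of the same animal, drawn from a healthy middle carpal joint while other joints of that horse were inflamed with lipopolysaccharide. Fluid kept from the same collection was added to the wells every 48 hours, so time in culture and added fluid cannot be told apart. Each library is 1 horse at 1 time point. Moon had no SF library of 48 hours, so 7 horses gave a pair. The parallel ISF cultures used fluid of the inflamed joints of the same horses, with 7 libraries at 48 hours and 8 at 96 hours. BMNC were isolated on a density gradient and not sorted, so each library holds RNA of all marrow cells that lasted in culture, and no culture without synovial fluid was compared.

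BMNC are a mixture of monocytes, lymphocytes, erythroid cells, stem and progenitor cells and myeloid precursors. Monocytes and their precursors that are kept in culture attach, enlarge and turn into macrophages, which gain lysosomes, lipid transporters and receptors for dead cells. Granulocytes live briefly, and monocytes carry the receptors and signaling proteins of the acute inflammatory response, which run through IL-1, IL-6 and NF-kappaB.

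The 15 libraries held 15653729 to 35972452 reads on genes at 48 hours and 19229390 to 24642666 at 96 hours. Levels are given in GeTMM, which divides reads by the length of the gene and brings libraries to a common scale, and 1 read on a gene of 1 kb was worth 0.0337 to 0.0755 GeTMM. Each of the 15 SF libraries lay closest to the horse on its label when its deviations were set against those of each horse in the other cultures of 48 and 96 hours. In ISF at 96 hours, the library labelled Dealings lay closest to Dreamer (Pearson r across genes 0.34, and -0.02 with its own horse), and the library labelled Dreamer lay closest to Dealings (0.46, and -0.22 with its own horse). The main counts that use these 2 ISF libraries are given below with and without them. Levels and changes of single genes in ISF include them unless stated otherwise.

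Most of the macrophage and lysosome genes tested rose between 48 and 96 hours in SF, while genes of IL-1 and IL-6 receptors, NF-kappaB regulators and immediate early genes fell. Genes of mature granulocytes, a list added after values were seen, fell as well. In the list of neutrophils and their precursors, 1 of 9 tested genes was lower by the rule given next. A gene was called when its Benjamini-Hochberg adjusted p from limma (FDR) was under 0.05 over the 14570 genes tested. By this rule 3982 genes (27.3%) changed, of which 1675 (11.5%) were higher and 2307 (15.8%) lower at 96 hours. At least a 2-fold change was seen in 251 genes that rose (1.72%) and 675 that fell (4.63%). The values of all 7 libraries of 48 hours lay apart from all 8 of 96 hours for 406 genes on the higher side (2.79%) and 1013 on the lower side (6.95%), or 1419 in all (9.74%). The direction was the same in all 7 paired horses for 3432 of the called genes (86.2%), whose calls rest on the same libraries. Over all tested genes, called or not, 2484 (17%) were higher and 2829 (19.4%) lower in all 7 horses. A fit of the 14 paired libraries with horse as a block, called the paired fit here, gave 6860 genes (47.1%), of which 3352 were higher (23%) and 3508 lower (24.1%), and 3918 of the 3982 calls were shared with it. The split depended on the scaling, since 42.1% of the calls were higher with GeTMM as deposited and 52% after quantile normalization. The shares of all tested genes in this paragraph are the measure for the list counts below.

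Among called genes the log2 fold change (log2FC) ran from -3.39 to 3.35, with a median absolute value of 0.66. The median over all genes tested was 0.016. Where a gene is given 2 levels from 48 to 96 hours without further words, these are the medians of the 7 and the 8 libraries. Calls were more frequent at higher levels, with 5.15% of the 2410 genes below 1 GeTMM in both groups called and 46% of the 1771 genes at 100 GeTMM or more. In bulk RNA, fewer cells of a type and less RNA per cell cannot be told apart, and this holds for each level given here.

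**Figure D1:**
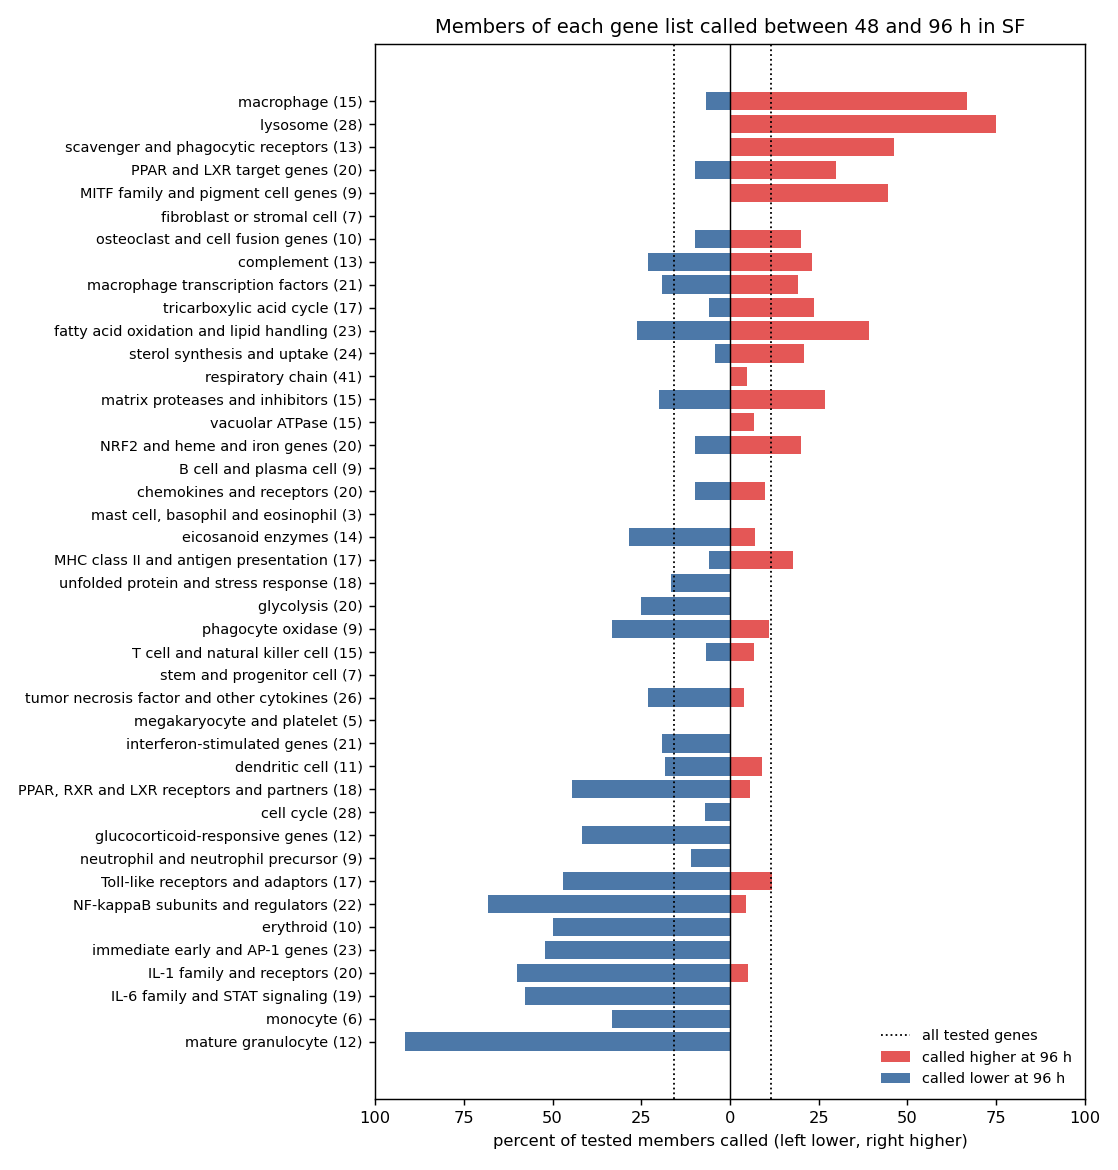
Percent of the tested members of each gene list called higher (red, right) or lower (blue, left) at 96 hours in SF, with the number of tested members in brackets and dotted lines at the 11.5% and 15.8% of all tested genes. Lysosome (21 of 28) and macrophage genes (10 of 15) reached furthest to the right and mature granulocyte genes (11 of 12) furthest to the left. The mature granulocyte list and the list of MITF family and pigment cell genes were added after values were seen.

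Of the 15 macrophage markers tested, 10 were called higher and 1 lower, with a median log2 fold change of 1.12. Without the libraries of Dealings and Flash, 9 were higher and 0 lower. SPP1, which encodes the secreted glycoprotein osteopontin, measured 342 to 3564 GeTMM (median 1441) at 48 hours and 1939 to 24293 (median 8153) at 96 hours. It rose in 7 of 7 horses although the ranges overlapped (log2FC 2.52, SE 0.61, FDR = 0.00104), and its change per horse ran from 0.25 in Dreamer to 3.79 in Catnip. SPP1 made up 0.194% of the summed GeTMM at 48 hours and 1.15% at 96 hours. TREM2, a lipid-sensing receptor of macrophages, lay at 98.5 to 231 GeTMM (median 146) at 48 hours and at 331 to 576 (median 429) at 96 hours. Every 96 hour library was above every 48 hour library (log2FC 1.55, SE 0.27, FDR = 5.92e-06). APOE, the lipid carrier of macrophages, was separated in the same way, at 1112 to 2508 GeTMM (median 1771) and then 3558 to 7188 (median 6150; log2FC 1.69, SE 0.36, FDR = 0.000192).

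GPNMB, a membrane glycoprotein of phagocytes, went from a median of 4951 to 13313 GeTMM (log2FC 1.34, SE 0.30, FDR = 0.000406), with overlapping ranges. The complement subunit genes C1QB (35.9 to 190 GeTMM; log2FC 1.90, SE 0.60, FDR = 0.0129) and C1QC (48.9 to 210 GeTMM; log2FC 1.78, SE 0.63, FDR = 0.0286) rose in 7 of 7 horses over wide ranges. C1QC lost its call when Dealings, Dreamer, Ollie or RimRun was left out (FDR up to 0.0859), with the 15 libraries alone, and without Dealings and Flash (FDR = 0.074). CD68, a lysosomal membrane protein of macrophages, rose from a median of 1663 to 3313 GeTMM (log2FC 0.84, SE 0.14, FDR = 5.94e-06). The hemoglobin scavenger receptor CD163 (512 to 732 GeTMM; log2FC 0.51, FDR = 0.464) and the mannose receptor MRC1 (110 to 166 GeTMM; log2FC 0.66, FDR = 0.243) were not called, although both were higher in 7 of 7 horses and passed in the paired fit (FDR = 0.000974 and 0.0028). In that fit 14 of the 15 markers were higher. ADGRE1, an adhesion receptor of macrophages, was the 1 marker called lower (190 to 62 GeTMM; log2FC -1.11, SE 0.41, FDR = 0.0365), and is named here after its values were seen. Its call ended when Catnip, Dealings, Moon, Ollie or RimRun was left out (FDR up to 0.0984).

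**Figure D2:**
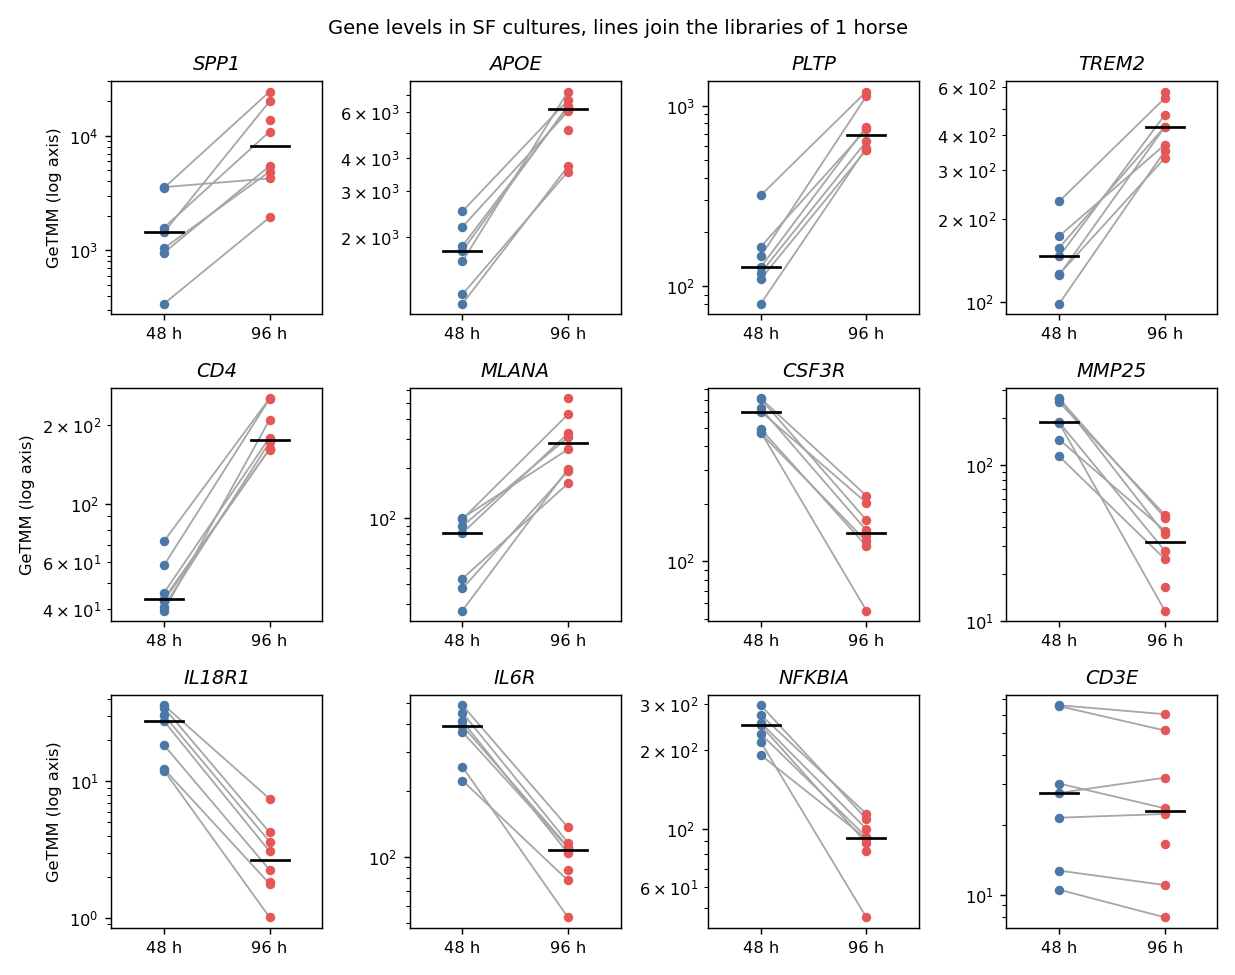
GeTMM (log axis) of 12 genes in each SF library of 48 hours (blue) and 96 hours (red), with grey lines joining the libraries of 1 horse and black bars at the medians. TREM2, APOE, PLTP, CD4 and MLANA were higher and CSF3R, MMP25, IL18R1, IL6R and NFKBIA lower in each 96 hour library than in each 48 hour library, SPP1 overlapped, and CD3E, a T cell gene, had medians of 27.5 and 23 GeTMM.

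Of 13 scavenger and phagocytic receptors tested, 6 were called higher and 0 lower (median 0.93; 10 higher and 1 lower in the paired fit). SCARB1, a receptor for high density lipoprotein, lay at 42.3 to 80.7 GeTMM at 48 hours and at 86.9 to 169 at 96 hours, without overlap (log2FC 1.07, SE 0.15, FDR = 5.27e-08). ITGB5, an integrin subunit used in the uptake of dying cells, rose from a median of 26.9 to 77.4 GeTMM (log2FC 1.47, SE 0.22, FDR = 2.69e-07). MERTK, a kinase receptor for apoptotic cells (17.4 to 39.2 GeTMM; log2FC 1.01, FDR = 0.00151), and LRP1, an endocytic receptor (39.6 to 89.8 GeTMM; log2FC 1.02, FDR = 0.000608), also rose. CD36, which takes up fatty acids and oxidized lipoprotein, went from 272 to 690 GeTMM (median 457) to 674 to 1327 (median 898; log2FC 0.95, SE 0.25, FDR = 0.00254).

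Lysosomal genes showed the largest share of higher calls of the lists, with 21 of 28 tested members higher and 0 lower (median 0.94). The count was again 21 without Dealings and Flash. Of the 28 members, 8 were higher without overlap between time points, where 2.79% of all tested genes were. GAA, the acid alpha-glucosidase that breaks down glycogen, rose from a median of 49.5 to 169 GeTMM (log2FC 1.49, SE 0.22, FDR = 3.59e-07), and LIPA, the lysosomal acid lipase, from 398 to 1168 (log2FC 1.41, SE 0.28, FDR = 7.41e-05). CTSK encodes cathepsin K, a collagen-degrading protease abundant in osteoclasts, and its lowest value at 96 hours (2175 GeTMM) exceeded its highest at 48 hours (1957; log2FC 1.36, SE 0.39, FDR = 0.00607). Subunits of the vacuolar ATPase, the proton pump that acidifies lysosomes, were mostly not called, with 1 of 15 higher and 0 lower (median 0.18; 4 and 1 in the paired fit, and 0 higher without Dreamer or Lurie). The 1 call is 6.67%, where 11.5% of all tested genes were called higher. Among 10 osteoclast and cell fusion genes 2 were higher and 1 lower (median 0.31; 7 and 1 in the paired fit).

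Lipid genes moved in both directions. Of 20 tested target genes of the nuclear receptors PPAR and LXR, 6 were higher and 2 lower (median 0.63; 13 and 3 in the paired fit). The phospholipid transfer protein PLTP, such a target, lay at 80.2 to 320 GeTMM (median 128) at 48 hours and at 570 to 1201 (median 690) at 96 hours. All 8 later libraries were above the 7 earlier ones (log2FC 2.40, SE 0.30, FDR = 3.64e-09). SCD, the stearoyl-CoA desaturase, was low at 48 hours (1.91 to 6.16 GeTMM) and reached 7.01 to 36.4 GeTMM at 96 hours (log2FC 1.89, SE 0.37, FDR = 4.95e-05). Of the 18 receptors and partners themselves, 1 was higher and 8 were lower (median -0.32; 5 and 10 in the paired fit). The higher one was NR1H3, which encodes LXR alpha (41.6 to 85.9 GeTMM, no overlap; log2FC 0.93, SE 0.21, FDR = 0.000358). The acetyltransferase coactivator EP300 lay at 52.4 to 86.2 GeTMM (median 74.3) and then at 27.3 to 34 (median 31.4; log2FC -1.19, SE 0.22, FDR = 1.96e-05). Its relative CREBBP fell from a median of 44.9 to 22 GeTMM (log2FC -1.08, SE 0.19, FDR = 7.51e-06) and the coactivator NCOA2 from 23.9 to 13.9 (log2FC -0.87, SE 0.23, FDR = 0.0028). None of these 3 genes overlapped between time points, and each fell in 7 of 7 horses. RXRA, the common partner of these receptors, went from 122 to 195 GeTMM to 85.1 to 163 (log2FC -0.60, SE 0.14, FDR = 0.000785).

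Fatty acid oxidation and lipid handling genes counted 9 higher and 6 lower of 23 (median 0.26). NPC2, which carries cholesterol out of lysosomes, rose from 1280 to 2761 GeTMM (median 1780) to 2797 to 4414 (median 3636; log2FC 0.98, SE 0.16, FDR = 2.43e-06). DGAT2, which makes triglyceride, fell from a median of 298 to 64.6 GeTMM (log2FC -2.46, SE 0.43, FDR = 9.06e-06), again without overlap. Among 24 sterol genes 5 were higher and 1 lower (median 0.25; 8 and 2 in the paired fit), with the mean change of the list running from -0.46 in RimRun to 0.79 in Dealings. DHCR7, the last enzyme of cholesterol synthesis, rose from a median of 37.8 to 85.2 GeTMM (log2FC 1.08, SE 0.28, FDR = 0.00224), and mevalonate kinase, MVK, from 12.2 to 18.9 (log2FC 0.70, SE 0.21, FDR = 0.00918). INSIG1, which holds back the sterol sensor, was near the threshold (141 to 339 GeTMM; log2FC 0.86, FDR = 0.049) and lost its call with each of 6 horses left out (FDR up to 0.126), while SREBF2, the transcription factor of sterol synthesis, fell (89.9 to 49.1 GeTMM; log2FC -0.84, SE 0.21, FDR = 0.00125).

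A list of MITF family and pigment cell genes was added after the values were seen, and is given as a description. Of its 9 tested members 4 were higher and 0 lower. MITF, a transcription factor of melanocytes, osteoclasts and other cells, lay at 10.6 to 24.4 GeTMM at 48 hours and at 26.9 to 45.3 at 96 hours (log2FC 1.07, SE 0.19, FDR = 9.85e-06). MLANA, a melanosome protein, lay at 27.5 to 99.9 GeTMM (median 81) and then at 162 to 531 (median 285; log2FC 2.17, SE 0.47, FDR = 0.000262). Both groups were apart for both genes. TRPM1, a cation channel of melanocytes, passed narrowly (12.9 to 23.9 GeTMM; log2FC 0.78, SE 0.30, FDR = 0.0463) and lost its call with each of 6 horses left out (FDR up to 0.17). The summed level of the list had medians of 5328 and 13890 GeTMM, of which MITF, MLANA and TRPM1 make up a small part. GPNMB, a macrophage marker described above, had levels close to that sum.

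**Figure D3:**
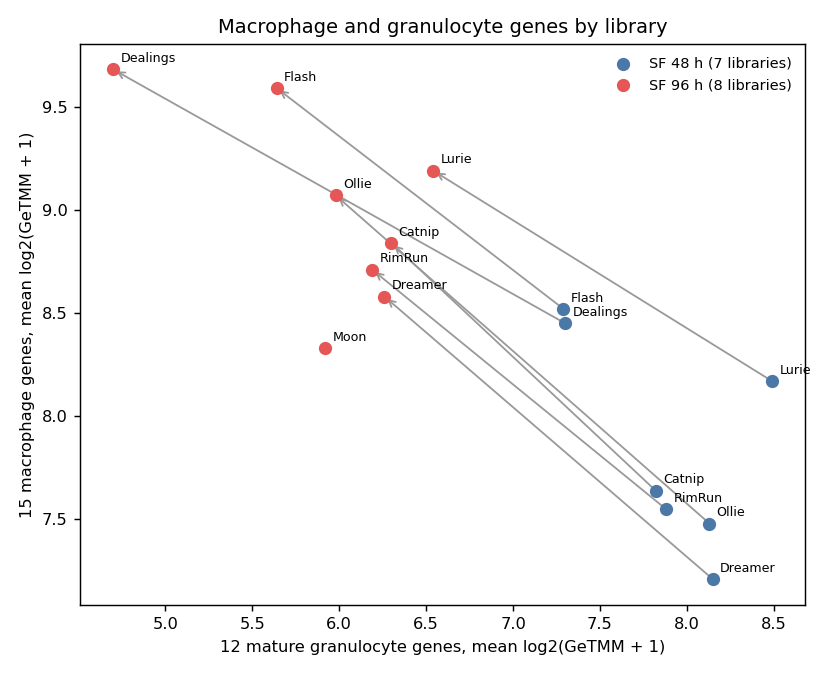
Mean log2(GeTMM + 1) of 15 macrophage genes (vertical axis) against that of 12 mature granulocyte genes (horizontal axis) in each SF library of 48 hours (blue) and 96 hours (red), with arrows joining the 2 libraries of a horse. All 7 arrows run up and to the left, and Dealings and Flash start from 8.45 and 8.52 on the macrophage axis, above the other 5 horses at 7.21 to 8.17. The granulocyte genes were listed after values were seen.

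Genes of mature granulocytes fell. This list of 12 tested genes was added after values were seen and so gives a description only. It includes MMP25 and MXD1, which are among the 12 lowest changes named below, so its counts are not independent of the values. It counted 0 higher and 11 lower, with a median log2 fold change of -1.88. The 11 were the same with any horse left out, which reuses the same choice of genes and is no independent support. The summed level of the list went from 4371 to 13379 GeTMM at 48 hours to 895 to 7551 at 96 hours. Its mean change per horse ran from -2.60 in Dealings to -1.52 in Catnip. CSF3R, the receptor for granulocyte colony-stimulating factor, lay at 467 to 710 GeTMM (median 606) at 48 hours and at 55.1 to 220 (median 140) at 96 hours. The groups were apart, with Dealings lowest at 96 hours (log2FC -2.07, SE 0.47, FDR = 0.000543). ALPL, an alkaline phosphatase of neutrophils, fell from a median of 325 to 82.3 GeTMM (log2FC -2.37, SE 0.46, FDR = 5.65e-05), and TREM1, an activating receptor of neutrophils and monocytes, from 452 to 134 (log2FC -1.70, SE 0.45, FDR = 0.00265), both without overlap. PADI4, which citrullinates histones in neutrophils, went from 67.8 to 17 GeTMM (log2FC -2.08, SE 0.49, FDR = 0.000762). S100A12, a calcium-binding protein of granulocytes and monocytes, was the 1 member not called (4802 to 2225 GeTMM; log2FC -1.17, SE 0.92, FDR = 0.378; paired FDR = 0.00107), and is named for that reason after its values were seen. S100A12 is also 1 of the 6 monocyte markers tested, and CSF3R is also in the list of neutrophils and their precursors. The genes described here are therefore not particular to granulocytes, nor separate from those lists.

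Genes of neutrophils and their precursors gave 1 call. Of 9 tested members of that list 0 were higher and 1, CSF3R, was lower (11.1%, against 15.8% of all genes; median -0.43; 0 and 4 in the paired fit). The summed level of the list was 2108 to 5632 GeTMM at 48 hours and 898 to 5450 at 96 hours. MPO, the myeloperoxidase of primary granules, lay at 149 to 548 GeTMM (median 408) at 48 hours and at 81 to 637 (median 376) at 96 hours, higher in 4 horses and lower in 3 (log2FC -0.07, SE 0.68, FDR = 0.958). ELANE, which encodes neutrophil elastase, measured a median of 629 and then 641 GeTMM (log2FC 0.12, SE 0.75, FDR = 0.936). Granulocyte genes moved in the same interval as the macrophage and inflammatory genes described here, and their part in those results was not tested.

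Of 6 monocyte markers tested 0 were higher and 2 lower (median -1.03; 0 and 6 in the paired fit). ITGAM, the integrin CD11b, fell from a median of 494 to 188 GeTMM (log2FC -1.31, SE 0.36, FDR = 0.00369). VCAN, a proteoglycan made by monocytes, went from 123 to 92.9 GeTMM, lower in 7 of 7 horses (log2FC -0.89, SE 0.40, FDR = 0.0945; paired FDR = 0.000367). The defining marker CD14 has 2 entries in the table and was not counted.

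Markers of other marrow cells gave few calls. In the T cell and natural killer list, 1 of 15 was higher and 1 lower (median -0.14). CD3D, CD3E and CD3G encode chains of the T cell receptor complex, and none was called. CD3E lay at 10.5 to 65.8 GeTMM (median 27.5) and then at 7.98 to 60.2 (median 23), so that the spread among horses exceeded the change (log2FC -0.22, SE 0.42, FDR = 0.756). CD3D had medians of 24.5 and 23.9 GeTMM (log2FC -0.01, FDR = 0.989) and CD3G of 25.5 and 22.5 (log2FC -0.07, FDR = 0.925). The higher member was CD4, the coreceptor for MHC class II, which macrophages of several species carry as well. It lay at 39.4 to 72.3 GeTMM (median 43.7) and then at 161 to 252 (median 175), without overlap (log2FC 1.96, SE 0.32, FDR = 2.15e-06). The lower member was NCR1, an activating receptor of natural killer cells, which fell from a median of 203 to 38.4 GeTMM (log2FC -2.41, SE 0.37, FDR = 8.66e-07), also without overlap.

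No member of the B cell and plasma cell (9 tested), stem and progenitor (7), megakaryocyte (5), mast cell, basophil and eosinophil (3) or fibroblast (7) list was called by limma in the fit of all libraries. The paired fit called 1 to 3 members of each. Erythroid genes were already low, with a summed level of 1.29 to 47.2 GeTMM over 10 genes at 48 hours and 0.874 to 4.94 at 96 hours, and 0 were higher and 5 lower (median -0.69; 0 and 8 in the paired fit). The calls include the heme synthesis enzyme ALAS2 (median 1.37 to 0.0407 GeTMM; FDR = 0.0103) and the globin chaperone AHSP (2.17 to 0.654; FDR = 0.0168), but not the transcription factors GATA1 (FDR = 0.205) and KLF1 (FDR = 0.872). Without RimRun 0 erythroid genes were lower, without Ollie 2, and AHSP also lost its call without Lurie (FDR up to 0.0894, and up to 0.061 for ALAS2). The 7 tested genes of the fibroblast list summed to 143 to 2144 GeTMM at 48 hours and 112 to 868 at 96 hours. The paired fit called 1 of them lower and 0 higher. Collagen genes among them stood at or near 0 in most libraries. In Dealings at 96 hours COL1A1, COL1A2 and COL3A1 reached 16.4, 9.34 and 15.3 GeTMM, and none of them was called (FDR = 0.657, 0.726 and 0.691). Of 11 dendritic cell markers 1 was higher and 2 were lower (median -0.28; 2 and 4 in the paired fit, and 1 lower without Dreamer or Ollie). The share called in either direction, 27.3%, was that of all tested genes. The activation marker CD83 rose from 80.3 to 154 GeTMM to 154 to 213 (log2FC 0.80, SE 0.16, FDR = 7.53e-05) and LAMP3, of mature dendritic cells, fell from a median of 9.45 to 3.62 (log2FC -1.08, SE 0.34, FDR = 0.0121). LAMP3 lost its call without Dealings and Flash.

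Receptors and mediators of the IL-1 family fell. Of 20 tested members 1 was higher and 12 lower (median -0.75; 11 lower without Dealings and Flash). The granulocyte genes, listed after values were seen, had a median of -1.88. IL18R1 and IL18RAP, the chains of the IL-18 receptor, were among the largest decreases. IL18R1 lay at 12 to 36.1 GeTMM (median 27.6) and then at 1.01 to 7.45 (median 2.66; log2FC -2.64, SE 0.30, FDR = 6.09e-10). IL18RAP lay at 52.9 to 103 GeTMM (median 97.9) and then at 3.42 to 25.5 (median 12.4; log2FC -2.62, SE 0.46, FDR = 8.04e-06). For both genes the time points did not overlap. The receptor accessory chain IL1RAP fell from a median of 22.7 to 5.25 GeTMM (log2FC -1.91, SE 0.25, FDR = 1.32e-08), likewise apart, and the receptor antagonist IL1RN from 107 to 31.3 (log2FC -1.80, SE 0.39, FDR = 0.000284), with an overlap.

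The cytokines themselves fell as well. IL1B was low throughout, at 6.5 to 39.6 GeTMM (median 27.1) at 48 hours and 3.62 to 14.6 (median 9.95) at 96 hours (log2FC -1.37, SE 0.32, FDR = 0.000706). IL18 fell from a median of 451 to 149 GeTMM (log2FC -1.33, SE 0.28, FDR = 0.000184). MYD88, the adaptor of IL-1 and Toll-like receptors, lay at 200 to 263 GeTMM and then at 140 to 169 (log2FC -0.63, SE 0.21, FDR = 0.0164), a small decrease that left no overlap.

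In the IL-6 and STAT list 0 of 19 tested members were higher and 11 lower (median -0.89), 9 of them without overlap. Over all tested genes 6.95% were lower without overlap. The count of 11 was the same without Dealings and Flash. IL6R, the receptor chain that binds IL-6, lay at 222 to 488 GeTMM (median 394) and then at 53.1 to 136 (median 107; log2FC -1.89, SE 0.31, FDR = 1.93e-06). CEBPB, a transcription factor induced by IL-6, fell from a median of 568 to 174 GeTMM (log2FC -1.46, SE 0.25, FDR = 3.92e-06), and SOCS3, the feedback inhibitor of this pathway, from 102 to 27.4 (log2FC -1.29, SE 0.37, FDR = 0.006). Both kept an overlap between time points. STAT6 (409 to 192 GeTMM; log2FC -0.98, SE 0.12, FDR = 7.67e-09) and STAT3 (107 to 70.5; log2FC -0.63, SE 0.21, FDR = 0.0214), which carry cytokine signals to the nucleus, fell without overlap.

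Of 22 NF-kappaB subunits and regulators, 1 was higher and 15 were lower (median -0.66), and 1 and 12 without Dealings and Flash. The inhibitor NFKBIA, itself a target of NF-kappaB, lay at 191 to 296 GeTMM (median 248) and then at 45.9 to 114 (median 92.4; log2FC -1.45, SE 0.27, FDR = 1.94e-05), with the lowest value in Dealings. The atypical inhibitor NFKBIZ lay at 15.8 to 30.4 GeTMM and then at 4.98 to 8.9 (log2FC -1.56, SE 0.20, FDR = 6.69e-09). NFKBID, of the same group, lay at 6.75 to 13.8 GeTMM and then at 2.41 to 5.15 (log2FC -1.33, SE 0.14, FDR = 4.61e-11). All 3 inhibitors were apart between time points. The DNA-binding subunit RELA went from 109 to 154 GeTMM to 63.4 to 106 (log2FC -0.81, SE 0.15, FDR = 2.31e-05), and REL from 33.2 to 61.9 to 19.9 to 26.6 (log2FC -0.93, SE 0.23, FDR = 0.00139). The kinase IKBKB, which marks the inhibitors for removal, lay at 101 to 140 GeTMM and then at 54.1 to 68.9 (log2FC -0.95, SE 0.16, FDR = 5.53e-06). These 3 genes did not overlap either. IKBKE, a related kinase, was the 1 member called higher (27.3 to 43.1 GeTMM; log2FC 0.57, SE 0.13, FDR = 0.000582), and is named after its values were seen.

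Immediate early and AP-1 genes counted 0 higher and 12 lower of 23 (median -0.71), and the same without Dealings and Flash. DUSP1, a phosphatase that switches off MAP kinases, lay at 224 to 506 GeTMM (median 318) and then at 43 to 140 (median 82.5; log2FC -1.99, SE 0.23, FDR = 7.73e-10). The zinc finger factor KLF6 lay at 175 to 308 GeTMM and then at 68 to 95.4 (log2FC -1.66, SE 0.21, FDR = 1.13e-08). The AP-1 subunit FOSL2 lay at 81 to 127 GeTMM and then at 26.1 to 45.8 (log2FC -1.49, SE 0.18, FDR = 1.26e-09). BTG2, an antiproliferative gene, fell from a median of 141 to 48 GeTMM (log2FC -1.47, SE 0.23, FDR = 1.22e-06). In all 4 the time points did not overlap. In a list of 17 Toll-like receptors, adaptors and related genes 2 were higher and 8 lower (median -0.52), and 5 were lower without Catnip, Dreamer or RimRun. The higher ones include TREM2, which is not a Toll-like receptor and also counts among the macrophage markers. NOD2, the sensor of bacterial muramyl dipeptide and not a Toll-like receptor either, went from 34.2 to 60.6 GeTMM (median 49.5) to 8.84 to 18.8 (median 14.2; log2FC -1.70, SE 0.20, FDR = 6.59e-10).

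Among chemokines and receptors 20% of tested members were called in either direction, and among tumor necrosis factor and other cytokines 26.9%. Over all tested genes the share was 27.3%, with 11.5% higher and 15.8% lower. Of 20 chemokines and receptors 2 were higher and 2 lower (median -0.01; 3 and 5 in the paired fit, and 1 lower without Dreamer or Ollie). CXCL8, which attracts neutrophils, fell from a median of 69.7 to 13.4 GeTMM (log2FC -1.93, SE 0.47, FDR = 0.00102), while CXCL16, a membrane-bound chemokine and scavenger receptor, rose from 454 to 865 (log2FC 0.90, SE 0.17, FDR = 3.57e-05) and the receptor CXCR3 from 10.9 to 27 (log2FC 1.09, SE 0.22, FDR = 6.88e-05). In the list of tumor necrosis factor and other cytokines 1 of 26 was higher and 6 were lower (median -0.18; 5 and 12 in the paired fit). VEGFA, the vascular growth factor, lay at 17.6 to 28.5 GeTMM and then at 3.52 to 8.18 (log2FC -1.76, SE 0.43, FDR = 0.000992). The growth factor TGFA (16 to 3.67 GeTMM; log2FC -1.72, SE 0.34, FDR = 5.65e-05) and the cytokine subunit IL27 (26.7 to 8.32; log2FC -1.47, SE 0.29, FDR = 6.78e-05) also fell without overlap. TGFBR2, a receptor for transforming growth factor beta, was the higher one (26 to 59.7, then 62.1 to 112 GeTMM; log2FC 1.05, SE 0.18, FDR = 3.57e-06).

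Among interferon-stimulated genes 0 of 21 were higher and 4 lower (19%, against 15.8% of all genes; median -0.27; 2 and 9 in the paired fit). ISG20, an RNA exonuclease, lay at 117 to 183 GeTMM (median 140) and then at 13.9 to 35.7 (median 25.3; log2FC -2.46, SE 0.43, FDR = 9.46e-06). IFIT2, which binds viral RNA, lay at 387 to 876 GeTMM and then at 119 to 277 (log2FC -1.54, SE 0.50, FDR = 0.0147), and lost its call without Dealings and Flash. Both genes were apart between time points. The transcription factors IRF1 (99.4 to 34.9 GeTMM; log2FC -1.28, SE 0.37, FDR = 0.00663) and IRF9 (152 to 69.7; log2FC -0.90, SE 0.28, FDR = 0.0122) overlapped. The mean change of this list ranged from -1.11 in Dreamer to 0.01 in Catnip. Complement genes split, with 3 of 13 higher and 3 lower (median 0.31; 7 and 4 in the paired fit). The protease C2 rose from a median of 35.1 to 110 GeTMM (log2FC 1.41, SE 0.43, FDR = 0.0101) and C5AR2, a receptor for C5a, fell from 25.1 to 9.93 (log2FC -1.41, SE 0.26, FDR = 2.57e-05). MHC class II and antigen presentation genes had 3 of 17 higher and 1 lower (median -0.07), and their summed level was 15013 to 19158 GeTMM at 48 hours and 14118 to 23460 at 96 hours.

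**Figure D4:**
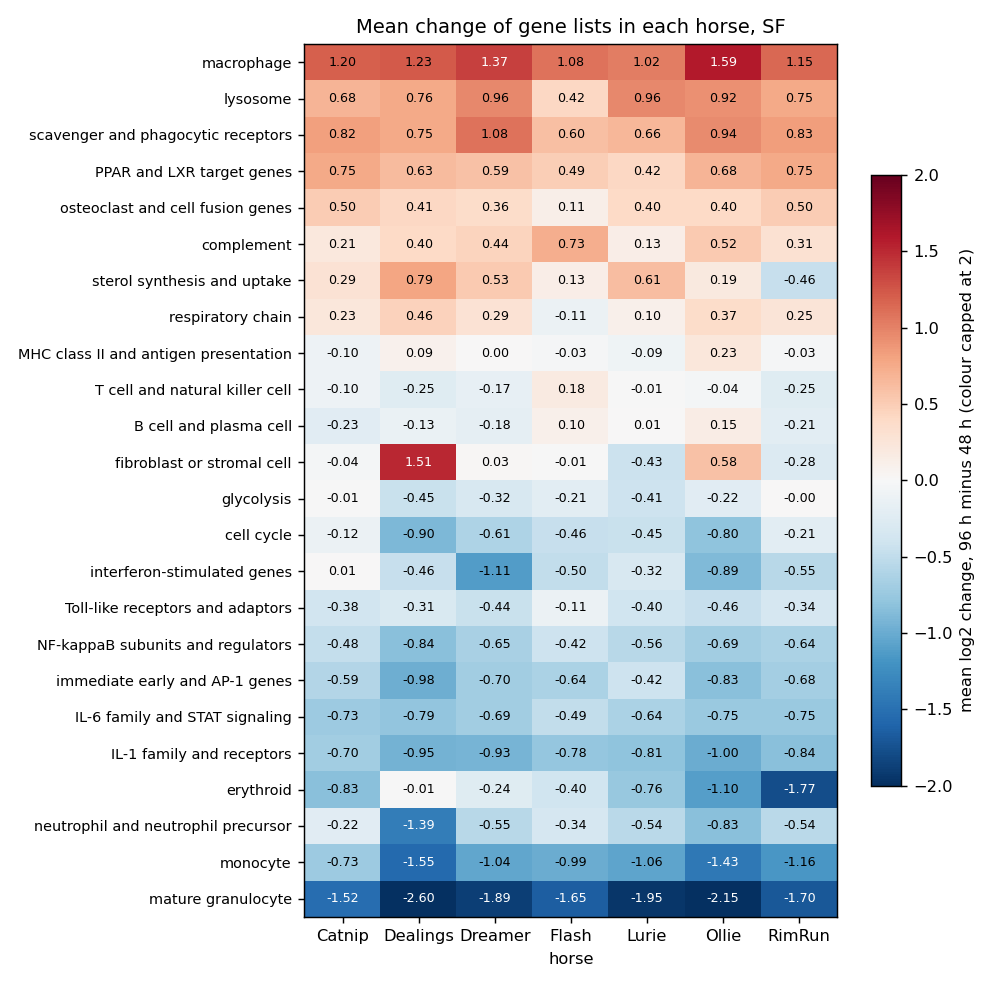
Mean log2 change from 48 to 96 hours of 24 gene lists (rows) in each of the 7 paired horses (columns), red for higher and blue for lower, with the value in each cell. Macrophage genes rose by 1.02 to 1.59 and mature granulocyte genes, listed after values were seen, changed by -2.60 to -1.52 in every horse. Fibroblast genes rose by 1.51 in Dealings and lay between -0.43 and 0.58 in the others.

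Counts of cell cycle genes depended on pairing by horse. In the fit without horse 0 of 28 were higher and 2 lower (median -0.40), a smaller share than the 15.8% of all genes, and in the paired fit 0 and 22, where 24.1% of all genes were lower. The mean change was negative in 7 of 7 horses and ran from -0.90 in Dealings to -0.12 in Catnip. E2F2, an activator of DNA replication genes, fell from a median of 50 to 18.2 GeTMM without overlap (log2FC -1.43, SE 0.28, FDR = 7.44e-05), and MCM7, a subunit of the replicative helicase, from 67.3 to 45.6 (log2FC -0.53, SE 0.16, FDR = 0.00771). MCM7 lost its call without Dealings and Flash and after quantile normalization. Of 41 respiratory chain subunits 2 were higher (4.88%, against 11.5% of all genes) and 0 lower (median 0.25). The paired fit called 19 higher, where it called 23% of all genes higher, and quantile normalization gave 28. The mean change of the list was above 0 in 6 horses and -0.11 in Flash. With Moon's 6 day SF library, which enters the common estimate of spread, left out, 12 were higher. The complex II subunit SDHC went from a median of 313 to 453 GeTMM (log2FC 0.45, SE 0.10, FDR = 0.000272) and the complex I subunit NDUFB3 from 102 to 131 (log2FC 0.50, SE 0.20, FDR = 0.0498), with FDR up to 0.201 when a horse was left out.

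Glycolytic genes counted 0 higher and 5 lower of 20 (median -0.11), and 3 lower without Dreamer, without Lurie, or without Dealings and Flash. The lactate exporter SLC16A3 fell from a median of 158 to 52.5 GeTMM (log2FC -1.59, SE 0.34, FDR = 0.00026) and phosphoglycerate kinase PGK1 from 526 to 318 (log2FC -0.76, SE 0.18, FDR = 0.000953), both without overlap. The hexokinase HK3 (326 to 122 GeTMM; log2FC -1.36, SE 0.51, FDR = 0.0369) and the aldolase ALDOA (1351 to 875; log2FC -0.57, SE 0.19, FDR = 0.0184) fell with overlapping ranges, and FDR reached 0.0865 and 0.0639 when a horse was left out. Of 17 genes of the tricarboxylic acid cycle 4 were higher and 1 lower (median 0.27; 9 and 1 in the paired fit, and 2 higher without Dreamer, Ollie or RimRun). The lower one was ACOD1, which turns an intermediate of the cycle into itaconate in inflamed macrophages (283 to 50.7 GeTMM; log2FC -2.06, SE 0.63, FDR = 0.0102). ACOD1 lost its call without Dealings and Flash. Among NRF2, heme and iron genes 4 of 20 were higher and 2 lower (median 0.17; 8 and 4 in the paired fit), with 0 lower without Dealings, Dreamer or Lurie and after quantile normalization. Among phagocyte oxidase genes 1 of 9 was higher and 3 lower (median -0.13; 3 and 4 in the paired fit, 1 lower without Lurie, and 0 higher without Catnip, Dealings, Lurie, Ollie or RimRun).

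Matrix proteases and their inhibitors also split, with 4 of 15 higher and 3 lower (median 0.24). The collagenase MMP1 lay at 715 to 1741 GeTMM (median 1460) and then at 151 to 496 (median 303; log2FC -2.19, SE 0.48, FDR = 0.000316), and the sheddase ADAM19 at 95.2 to 256 (median 203) and then at 15.1 to 78.4 (median 47.6; log2FC -2.14, SE 0.41, FDR = 4.29e-05). Neither gene overlapped between time points. MMP19, another matrix metalloproteinase, rose from a median of 25.7 to 83.1 GeTMM (log2FC 1.68, SE 0.28, FDR = 3.52e-06). In the eicosanoid list 1 of 14 was higher and 4 lower (median -0.07; 3 and 5 in the paired fit). HPGDS, which makes prostaglandin D2, lay at 2.63 to 9.05 GeTMM and then at 10.7 to 29.7 (log2FC 1.81, SE 0.26, FDR = 1.32e-07), while the 5-lipoxygenase ALOX5 (96.8 to 46.5 GeTMM; log2FC -1.13, SE 0.23, FDR = 9.19e-05) and the prostaglandin E2 receptor PTGER4 (46.6 to 21.5; log2FC -1.12, SE 0.25, FDR = 0.000444) fell.

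Of 12 glucocorticoid-responsive genes 0 were higher and 5 lower (median -0.41). HSD11B1, which regenerates active glucocorticoid, fell from a median of 251 to 49.6 GeTMM (log2FC -2.22, SE 0.55, FDR = 0.00137), and TSC22D3, a leucine zipper protein induced by glucocorticoid, from 32.7 to 18.4 (log2FC -1.12, SE 0.33, FDR = 0.00649). TSC22D3 lost its call with the 15 SF libraries alone. Genes of the unfolded protein and stress response had 0 of 18 higher and 3 lower (16.7%, near the 15.8% of all genes; median -0.09; 1 and 7 in the paired fit, and 1 lower without Dealings or without Dreamer). Among them DDIT3, the stress transcription factor CHOP, fell from a median of 357 to 96.4 GeTMM without overlap (log2FC -1.97, SE 0.27, FDR = 5.47e-08). Of 21 macrophage transcription factors 4 were higher and 4 lower (median 0.29; 11 and 4 in the paired fit).

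A list of 55 genes was selected from those the study names as upstream regulators or pathway genes in its intervals and fluids, this interval in SF included, and is not the full set. The study chose them on the same libraries, so their count is no independent evidence. In SF between 48 and 96 hours 9 were higher and 32 lower (median -0.68). SELP, the adhesion molecule P-selectin, lay at 215 to 386 GeTMM (median 249) and then at 26.9 to 109 (median 61.9; log2FC -2.19, SE 0.38, FDR = 5.78e-06). The adaptor SAMSN1 (112 to 26.5 GeTMM; log2FC -2.01, SE 0.28, FDR = 5.45e-08) and TSPO, a protein of the outer mitochondrial membrane (874 to 293; log2FC -1.58, SE 0.36, FDR = 0.000583), fell without overlap as well. Mitochondrial aldehyde dehydrogenase ALDH2 rose from 197 to 273 GeTMM to 291 to 431 (log2FC 0.71, SE 0.13, FDR = 2.25e-05), and the deacetylase SIRT2 from a median of 22.4 to 33.7 (log2FC 0.42, SE 0.14, FDR = 0.0204; 0.0933 at most with a horse left out, when Dreamer or Ollie ended the call).

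Among the 2733 called genes with a unique symbol, at least 5 GeTMM and the same direction in 7 horses, the 12 highest changes held S100A1, HSD17B14, SPP1, PLTP, VCAM1, ADAMTS1, MLANA, PRELP, DEFB1, CD4, S100A13 and C1QB. Those not described above follow. S100A1, a calcium-binding protein, lay at 2.35 to 34.6 GeTMM (median 10.7) and then at 28.6 to 473 (median 177; log2FC 3.35, SE 0.55, FDR = 2.89e-06). Its levels overlapped between time points, and its change within a horse ran from 2.20 to 4.39. The neighbouring S100A13 rose from a median of 19.6 to 90 GeTMM (log2FC 1.91, SE 0.36, FDR = 2.69e-05). The annotated genes overlap and the strand used in counting is not given in the sources used here, so their reads may not be told apart. HSD17B14, a steroid dehydrogenase, lay at 3.33 to 40 GeTMM (median 13.8) and then at 45.1 to 119 (median 72.4), without overlap (log2FC 2.60, SE 0.34, FDR = 1.39e-08).

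VCAM1, an adhesion molecule that holds leukocytes, lay at 1.2 to 18 GeTMM (median 2.73) and then at 9.46 to 86.2 (median 21; log2FC 2.29, SE 0.57, FDR = 0.00139). ADAMTS1, a protease that cuts proteoglycans, lay at 1.03 to 11.9 GeTMM (median 1.74) and then at 5.99 to 41.7 (median 19.3; log2FC 2.21, SE 0.46, FDR = 0.000146). The matrix protein PRELP rose from a median of 3.57 to 22.6 GeTMM (log2FC 2.10, SE 0.57, FDR = 0.00334). DEFB1, an antimicrobial beta-defensin, lay at 5.06 to 26 GeTMM and then at 32.9 to 99.6 (log2FC 1.97, SE 0.47, FDR = 0.000934). VCAM1, ADAMTS1 and PRELP overlapped between time points and DEFB1 did not.

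The 12 lowest changes began with CA12, a membrane carbonic anhydrase, which lay at 28.2 to 300 GeTMM (median 127) and then at 2.48 to 50 (median 8.12; log2FC -3.39, SE 0.47, FDR = 5.96e-08). IL22RA2, a soluble receptor that binds IL-22, fell from a median of 42.4 to 2.06 GeTMM (log2FC -3.16, SE 0.47, FDR = 3.08e-07), with 3.44 GeTMM in Lurie at 48 hours against 21.1 to 73.1 in the other 6. CSTA, the protease inhibitor cystatin A, fell from 80.2 to 9.96 GeTMM (log2FC -2.74, SE 0.43, FDR = 8.5e-07). In these 3 genes the ranges met, although each fell in 7 of 7 horses.

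In the others the time points were apart, except for HBA2. MMP25, a membrane-anchored metalloproteinase of leukocytes, lay at 113 to 266 GeTMM (median 187) and then at 11.6 to 47.8 (median 32; log2FC -2.73, SE 0.36, FDR = 2.48e-08). CRISPLD2, a secreted protein that binds lipopolysaccharide, lay at 37.2 to 58.2 GeTMM and then at 2.66 to 9.52 (log2FC -2.67, SE 0.27, FDR = 1.65e-11). MXD1, an antagonist of MYC, went from a median of 637 to 107 GeTMM (log2FC -2.51, SE 0.34, FDR = 2.74e-08). MMP25 and MXD1 are also in the granulocyte list.

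EMB, a partner of monocarboxylate transporters, lay at 117 to 334 GeTMM (median 272) and then at 12.3 to 64.9 (median 29; log2FC -2.72, SE 0.42, FDR = 9.24e-07). PPP1R3B, which directs a phosphatase to glycogen, lay at 155 to 297 GeTMM (median 166) and then at 12.4 to 58.8 (median 33.2; log2FC -2.57, SE 0.44, FDR = 6.44e-06). G0S2, an inhibitor of triglyceride lipase, fell from a median of 159 to 25.4 GeTMM (log2FC -2.52, SE 0.51, FDR = 0.000101). The IL-18 receptor genes IL18R1 and IL18RAP, described above, belong to the same 12. HBA2, an alpha-globin gene with a near-identical copy next to it, fell from a median of 85.5 to 11 GeTMM (log2FC -2.59, SE 0.72, FDR = 0.0045), over a range of 5.65 to 311 at 48 hours. Its level is uncertain where reads fit both copies.

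The horses differed in how far they moved. The root mean square change over the genes tested was 0.51 in Flash and 0.71 in Dealings, and the number of genes changed at least 2-fold in a horse ran from 324 (Flash) to 777 (Dealings) upward and from 519 (Flash) to 1210 (Ollie) downward. The change of each horse correlated across genes with the mean change of the other 6 at 0.71 to 0.84. The first principal component of the 15 libraries held 40.8% of the variance, with the libraries of 48 hours at -49.3 to -5.23 and those of 96 hours at 12.4 to 59.9. Dealings and Flash at 48 hours lay nearest the later libraries on it, at -8.06 and -5.23 against -38.4 or lower in the other 5 horses. Their granulocyte genes at 48 hours averaged 7.30 and 7.29 on the log2 scale, against 7.82 to 8.49 in the others. Without the SF libraries of both horses, 3492 genes were called, 1395 higher and 2097 lower. The 5 genes with the largest spread of change among horses were short noncoding RNA genes, 5_8S_rRNA, U1, SNORD62, SNORD73 and SNORD63, and their SDs over horses were 1.40 to 3.14.

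The same interval in ISF gave 2764 called genes (19%), 1245 higher (8.54%) and 1519 lower (10.4%), and 1978 (13.6%) without the 2 libraries of Dealings and Dreamer at 96 hours. The 2 intervals share no library but come from the same horses. Of the genes called in SF, 2079 were called in the same direction in ISF (52.2% of the SF calls and 75.2% of the ISF calls), 1634 without those 2 libraries (41% and 82.6%). The sign was the same for 3866 of the 3982 SF calls (97.1%), and for 3884 (97.5%) without the 2 libraries. The changes of all tested genes correlated with a Pearson r of 0.80 (0.81 without the 2 libraries), which describes genes and not independent replicates. VCAM1 rose by 3.08 in ISF (FDR = 4.53e-05), PLTP by 1.80 (FDR = 5.78e-06) and CD4 by 1.64 (FDR = 1.09e-04), while CA12 changed by -2.97 (FDR = 3.05e-06) and IL18R1 by -2.32 (FDR = 5.70e-08). Without the 2 libraries these changes were, in the same order, 2.93 (FDR = 0.000559), 1.72 (FDR = 0.000102), 1.47 (FDR = 0.00176), -2.75 (FDR = 8.35e-05) and -2.24 (FDR = 1.33e-06).

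**Figure D5:**
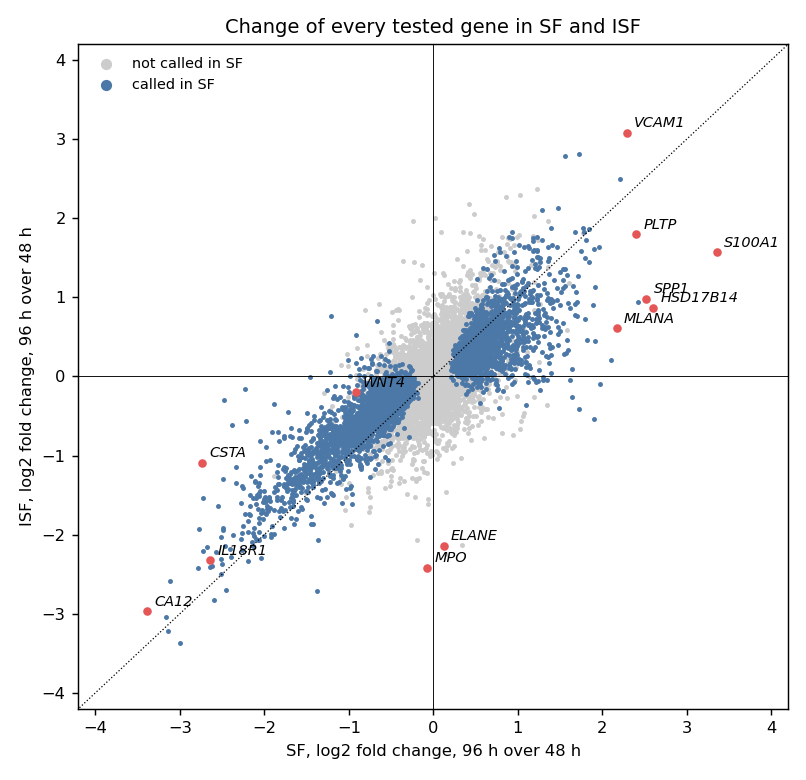
Log2 fold change from 48 to 96 hours of each of the 14570 tested genes in SF (horizontal axis) and ISF (vertical axis), blue where called in SF, with a dotted line of equal change and some genes named in red. Most blue points lie in the lower left and upper right, and MPO and ELANE lie near 0 in SF and at -2.42 and -2.14 in ISF.

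The difference between both changes was tested directly, and 3 genes passed (0.0206%), 1 with a higher (0.00686%) and 2 with a lower change in SF (0.0137%), while 806 (5.53%) had an unadjusted p under 0.05. With horse as a block 316 genes passed (2.17%), and 182 (1.25%) without the 2 doubtful ISF libraries, of which 160 were shared. The gene ENSECAG00000028085, which carries no symbol, lay at 70.1 to 288 GeTMM at 48 hours and 14.3 to 49.9 at 96 hours in SF (-2.48), and its means in ISF were 267 and 248 (log2FC -0.30; difference -2.18, interaction FDR = 0.0487). WNT4, a secreted signaling protein, was at the low end of detection, at 0.887 to 1.91 GeTMM and then at 0 to 0.573 (-0.92), with -0.20 in ISF (difference -0.72, interaction FDR = 0.0487). The gene ENSECAG00000032497 changed by -0.07 in SF and by -1.61 in ISF (difference 1.54, interaction FDR = 0.0331). Without the 2 ISF libraries 0 genes passed in the fit without horse, where ENSECAG00000028085, WNT4 and ENSECAG00000032497 had an interaction FDR of 0.238, 0.134 and 0.134. With horse as a block their interaction FDR was 0.00469, 0.0301 and 0.00469 with all paired libraries, and 0.00693, 0.0758 and 0.0107 without those 2, so that WNT4 alone lost the call.

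MPO did not pass in the fit without horse (difference 2.35, interaction FDR = 0.733) and passed with horse as a block (FDR = 0.0155, and 0.024 without the 2 libraries). Its mean in ISF went from 645 to 158 GeTMM. ELANE did not pass in either (interaction FDR = 0.849, and 0.0722 with the block). With the block, the rises of HSD17B14 (interaction FDR = 0.0259), HPGDS (0.021), ALDH2 (0.0174) and CXCR3 (0.0214) were larger in SF, and the decreases of VEGFA (0.0271) and PGK1 (0.0174) were deeper in SF, all of which passed without the 2 libraries as well (0.0187 to 0.0492). DEFB1 (0.0225), SCD (0.043) and TRPM1 (0.028) passed with all libraries and not without those 2 (0.0679, 0.0558 and 0.0764). None of these 10 genes passed in the fit without horse.

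The levels of other SF time points place this interval in the course of the culture, and they share libraries with the comparison above. SPP1 averaged 11.5 GeTMM in BMNC before culture, 1777 and 10658 at 48 and 96 hours, 24424 at 6 days and 30652 at the last time point, 10 days. APOE averaged 16, 1750, 5612, 16893 and 9328 GeTMM at these times, and CD4 27.8, 49.1, 193, 268 and 364. MLANA averaged 5.39, 68.1, 300, 808 and 737 GeTMM. CSF3R was at 625 GeTMM before culture, 583 and 146 at 48 and 96 hours, and 45.2 and 25.8 at 6 and 10 days, so that its mean at 48 hours was near that of fresh cells. IL6R averaged 298, 370, 99.4, 37.4 and 31 GeTMM. MPO, with 695, 386, 397, 177 and 30.3 GeTMM, had similar means at 48 and 96 hours and a low one at 10 days.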

How the data were processed

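RNA of BMNC cultures was sequenced as stranded read pairs. The authors mapped reads to EquCab3.0 with STAR (2.7.2a) and counted them per gene, and they deposited GeTMM, an RPKM-like value (reads per kilobase scaled with TMM factors from edgeR), without logarithm. Reads per gene were recovered from the steps of the values, and all 24065 genes above 0 came out whole within 0.02 reads. Genes at 0.5 GeTMM or more in at least 7 libraries were tested with limma (3.58.1, R 4.3.3; lmFit, eBayes with trend) on log2(GeTMM + 1), in 1 fit of 68 libraries in 9 groups with no term for horse. Fold changes are on that scale and understate low genes. P-values are two-sided. In the fit without horse they rest on the spread of libraries within groups, pooled over all 9 groups. Libraries of the same horse count as independent there, so these p-values do not measure how the change varies between horses. Same-horse samples pair by animal. Their deviations correlated at 0.36 to 0.60 (0.15 to 0.35 with the closest other horse). On simulated data with 200 changed genes among 14570, 83% of 2-fold and 96% of 4-fold changes were found, and 4.79% of calls were false. In the test of the difference between fluids, 8 unchanged genes passed. The simulation had no effect of horse, the same mean in all other groups and far fewer changed genes, so these rates may not hold for the data.

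Named genes are the 12 highest and 12 lowest changes (FDR under 0.05, mean of at least 5 GeTMM, 1 entry per symbol, same direction in 7 horses), up to 4 called members per list, the first 3 markers per cell type, genes selected from the regulators the study names, genes called between fluids and the 5 with the largest spread among horses. Genes and lists were chosen with earlier results of these data known. Some genes under the rule are not reported here. Members under 1 entry that passed the filter count as tested. Depth per sample (15653729 to 35972452 reads) limits genes near 1 read. Alternatives were a pseudocount of 0.1, no filter, blocks, fewer libraries, quantile scaling, weights, a 2-fold limit and voom on recovered reads. Gene overlaps come from a RefSeq table of another horse build, of which no coordinate is used.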

Additional observations from a re-analysis of the deposited data

Results flagged for a closer look

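Values that stood apart within a group were sought with Dixon's criterion in 313 groups of SF libraries or horses, and 19 (6.07%) passed, where chance gives about 1 in 20. Dealings accounts for most of the single genes. In its 96 hour library MPO was 81 GeTMM (273 to 637 in the other horses), ELANE 122 (474 to 1012), CSF3R 55.1 (120 to 220), ALPL 18.9 (49.8 to 111), NFKBIA 45.9 (81.9 to 114) and SAMSN1 12.3 (22.6 to 31.5). The same library was high in COL1A1 with 16.4 GeTMM (0 to 1.42), COL1A2 with 9.34 (0 to 0.809) and COL3A1 with 15.3 (0.0124 to 1.47). At 48 hours Dealings was low in ELANE with 146 GeTMM (459 to 818) and ADAM19 with 95.2 (173 to 256) and high in IKBKE with 38.3 (24.8 to 29.1).

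IL22RA2 was 3.44 GeTMM in Lurie at 48 hours (21.1 to 73.1 in the others), and IL1B was 6.5 in Flash at 48 hours (23.6 to 39.6). In mean log2 change per horse, Flash stood apart in vacuolar ATPase genes at -0.24 (0.13 to 0.21 in the other 6 horses), osteoclast genes at 0.11 (0.36 to 0.50) and Toll-like receptors at -0.11 (-0.46 to -0.31). Catnip stood apart in mast cell, basophil and eosinophil genes at 0.40 (-0.48 to -0.12), and Dealings in macrophage transcription factors at -0.03 (0.18 to 0.30).

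A change that differed between SF and ISF, by limma's test of the difference, was found for ENSECAG00000028085 (-2.18, FDR = 0.0487), WNT4 (-0.72, FDR = 0.0487) and ENSECAG00000032497 (1.54, FDR = 0.0331). With the doubtful pair of 96 hour ISF libraries (Dealings, Dreamer) left out, none of the 3 passed in the fit without horse, and with horse as a block ENSECAG00000028085 (FDR = 0.00693) and ENSECAG00000032497 (FDR = 0.0107) passed and WNT4 (FDR = 0.0758) did not.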

How the results depend on the processing

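Of the 3982 calls in SF, an FDR with a 2-fold limit left 926 (251 higher, 675 lower), the 14 paired libraries with horse as a replicate block gave 6860 (3352 higher, 3508 lower), and library weights gave 6341 (3015 higher). The other settings gave 3748 to 5215 calls, which is within 1.5 times of 3982, with 5163 when the SF library of Moon at 6 days was left out. With each horse removed, the count lay between 3243 (Ollie removed) and 3867 (Flash removed), with 1274 to 1635 higher and 1941 to 2232 lower. Leaving out SF libraries of Dealings and Flash, chosen after seeing the data, gave 3492. For all 135 genes named, each setting kept the direction of every called change, and 106 of 121 called genes kept their call in all settings other than the 2-fold limit. C1QC, INSIG1, NDUFB3, TRPM1, ADGRE1 and HK3 lost it most often, and the cause was not tested.

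The 3 genes whose change differed between SF and ISF were the least stable count. It was 0 with a pseudocount of 0.1, 0 with voom, 5 in the 30 libraries of both time points, 27 with horse as a replicate block in all libraries, 316 in 28 paired libraries with the block and 207 with library weights. It was 0 to 2 with a horse left out, and, chosen after seeing the data, 0 without both doubtful ISF libraries, 182 in 26 paired libraries without these, and 0 without Dealings and Flash in SF. Genes under 1 GeTMM rest on few reads.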
